A study of Rattus norvegicus with 12 samples.

Results

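The genes described here are the p53-linked growth-arrest set Cdkn1a, Mdm2, Gadd45a, Gadd45b, Gadd45g, Btg1, Btg2, Ccng1 and Bax, measured in rat lung on Affymetrix expression arrays. Their probe sets were found by taking each probe set of the deposited table for which the platform annotation names 1 gene alone, and keeping those whose gene was one of these 9. That gave 10 probe sets for 7 genes, out of 20826 probe sets naming 1 gene, 31099 probe sets in all and 14217 named genes. Cdkn1a had 2 such probe sets, Mdm2 had 3, and Gadd45a, Gadd45b, Gadd45g, Btg1 and Ccng1 had 1 each. Btg2 had no probe set that names it alone, and the 1 probe set that names Bax names another gene too, so both were not analysed here.

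The right lungs of 12 rats weighing 250 to 350 g were profiled, 3 in each of 4 groups. Rats came from 2 inbred strains, labelled Dahl Salt Sensitive (SS) and Brown Norway (BN), and each strain was either control or given what the labels call HTV ventilation. The labels do not spell out HTV, and no source used here states its volume, its duration or the animals' age and sex. All 12 samples carry the same room-air description, and in all of them the lung vessels were flushed with saline before the right lung was frozen. Each array carries an animal number of its own, and arrays are numbered 1 to 3 within a group only as names.

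p53 is a transcription factor that is stabilised when cells meet DNA damage or other stress, and that switches on genes which halt the cell cycle, repair DNA or start apoptosis. Cdkn1a encodes p21, which binds and inhibits cyclin-dependent kinases, and Mdm2 encodes the ubiquitin ligase that marks p53 for breakdown and is itself a p53 target. The GADD45 proteins are small acidic proteins that bind p21, PCNA and the kinase MAP3K4 upstream of p38 and JNK. Gadd45a is a classical p53 target, whereas Gadd45b and Gadd45g are best known as genes induced by cytokines. Cdkn1a and the GADD45 genes are also induced by stress and growth-factor signals that do not need p53. Ccng1 encodes cyclin G1, another p53 target, and Btg1 encodes an antiproliferative partner of the CCR4-NOT deadenylase.

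The promoter windows of 5 of these genes are printed because the array results below differ among them: Cdkn1a and Gadd45a were higher under HTV in both strains, Gadd45g and Gadd45b passed the test in 1 strain each, and Ccng1 did not pass under HTV in either. Each window runs 5′ to 3′ on the gene's strand from 250 bases before to 50 after the annotated start, from RefSeq on GRCr8. The windows are chr20:7150682-7150981 (plus strand) for Cdkn1a, chr4:97486750-97487049 (minus) for Gadd45a, chr10:25684827-25685126 (minus) for Ccng1, chr7:9430669-9430968 (minus) for Gadd45b and chr17:13530302-13530601 (minus) for Gadd45g. Capitals mark matches to the p53 half-site, CCAAT or TATAAA on either strand.
Cdkn1a: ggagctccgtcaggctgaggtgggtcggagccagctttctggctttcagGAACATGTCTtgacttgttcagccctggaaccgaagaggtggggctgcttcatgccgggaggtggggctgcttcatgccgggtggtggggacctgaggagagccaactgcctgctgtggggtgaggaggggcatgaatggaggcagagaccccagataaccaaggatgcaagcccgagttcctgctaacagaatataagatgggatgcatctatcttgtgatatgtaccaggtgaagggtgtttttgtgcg
Gadd45a: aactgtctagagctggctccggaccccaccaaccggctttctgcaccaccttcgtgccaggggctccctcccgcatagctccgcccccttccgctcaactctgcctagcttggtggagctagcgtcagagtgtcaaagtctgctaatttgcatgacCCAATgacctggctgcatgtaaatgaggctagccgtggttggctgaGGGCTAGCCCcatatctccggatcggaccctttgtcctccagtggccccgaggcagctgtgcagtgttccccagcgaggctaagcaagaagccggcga
Ccng1: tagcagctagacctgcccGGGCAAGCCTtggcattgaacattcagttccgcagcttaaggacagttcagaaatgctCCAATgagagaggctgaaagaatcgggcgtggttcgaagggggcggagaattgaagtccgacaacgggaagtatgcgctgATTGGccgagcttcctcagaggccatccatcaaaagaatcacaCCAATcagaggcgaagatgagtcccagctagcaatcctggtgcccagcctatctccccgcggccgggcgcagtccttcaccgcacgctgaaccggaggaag
Gadd45b: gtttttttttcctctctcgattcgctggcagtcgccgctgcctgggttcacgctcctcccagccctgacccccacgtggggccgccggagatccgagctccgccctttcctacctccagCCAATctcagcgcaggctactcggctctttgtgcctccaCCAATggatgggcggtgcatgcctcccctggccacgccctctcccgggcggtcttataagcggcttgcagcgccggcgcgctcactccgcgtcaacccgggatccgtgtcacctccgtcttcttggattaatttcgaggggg
Gadd45g: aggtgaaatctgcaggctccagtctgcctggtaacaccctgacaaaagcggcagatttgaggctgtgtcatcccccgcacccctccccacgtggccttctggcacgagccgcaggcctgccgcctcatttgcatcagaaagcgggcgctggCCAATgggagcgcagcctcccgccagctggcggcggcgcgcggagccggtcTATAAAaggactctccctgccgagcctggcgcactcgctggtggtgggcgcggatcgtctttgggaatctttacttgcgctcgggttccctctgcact

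Motifs were searched as exact letters on both strands. They were the TATA box TATAAA, the CREB word TGACGTCA, the AP-1 word TGANTCA, the CCAAT box, the GC box GGGCGG and the p53 half-site, a degenerate palindrome that reads alike on both strands. No match to one of these overlapped a match to another in the 5 windows printed. A p53 half-site match stood at −201 to −192 from the start of Cdkn1a, at −48 to −39 in Gadd45a and at −232 to −223 in Ccng1. Of 27457 rat promoter windows of the same length, 7.89% hold at least 1 such match, so a match is not rare. Gadd45b and Gadd45g held none, and the TATA box of Gadd45g, at −48 to −43, is a word found in 14.3% of windows. CCAAT occurred in 4 of the 5 windows, Cdkn1a being the exception, against 37.7% of all windows. The GC box (34.9% of all windows) is not capitalised, and the CREB word (1.91%) and the AP-1 word (7.33%) had no match in these 5. Of the 9 genes 8 had a window in the table. The windows of Mdm2, Btg1 and Btg2, not printed, held no p53 half-site match. CCAAT occurred in those of Mdm2 and Btg2 but not in that of Btg1, and Btg2 held the CREB word at −201 to −194. The 5 printed windows were picked by their array results, so their matches are not a share over all members. A match is a description of these letters and not a bound site.

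Intensities are the deposited linear values, scaled by the submitters so that arrays are alike in level (median 58.5 to 68.1). Differences are given on the log2(intensity + 16) scale from a limma model of the 4 group means, where ± is the standard error, and adjusted p-values are Benjamini-Hochberg values over 18626 probe sets with a threshold of 0.05. A gene was represented by its probe set with the highest mean, which left 10555 genes. All 10 member probe sets passed the filter on dim probe sets, set at a mean intensity of 43.6 over the 12 arrays. Cdkn1a 1387391_at passed it only through its SS HTV arrays (group mean 153.6, against 28.2, 2.63 and 17.7 in the other groups), so its values are given as a description, with no test. In whole lung, fewer cells of a type and less RNA per cell cannot be told apart.

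Markers of lung epithelium and endothelium were present, with 10 of 11 listed genes measured, a summed intensity of 21525.0 to 29751.7 on the 12 arrays, and 0 of 10 past the test under HTV in either strain. Neutrophil markers moved with HTV: 5 of 7 rose in SS and 6 of 7 in BN, and their summed intensity went from 1400.7 to 2348.9 in SS control and 922.1 to 1615.0 in BN control to 5364.0 to 8105.7 in SS HTV and 2859.4 to 8503.5 in BN HTV. Of 9 T and NK cell markers 3 fell in SS and 1 in BN, and of 2 B cell markers 2 fell in SS and 1 in BN. With single arrays left out, the neutrophil counts ran from 3 to 7 in each strain and the T and NK cell counts from 2 to 6 in SS and 0 to 3 in BN. Without both SS control 3 and BN HTV 3 the neutrophil counts were 6 and 7, and those of T and NK cells 6 and 3. Of 6 macrophage and monocyte markers 1 rose in SS and none passed in BN, and of 3 red cell and platelet markers 1 rose in SS. Cardiac muscle markers did not pass under HTV (0 of 5 in each strain), but 4 of 5 were lower in SS than in BN control lungs and 1 of 5 under HTV. Some other markers passed between the strains too. Of all genes, 11.0% passed between the strains in control lungs and 7.28% under HTV. For HTV against control the shares were 8.04% in SS and 5.68% in BN. A count of 1 in a short list is therefore not read as a result about a cell type. Of 10 lung markers 2, the endothelial Pecam1 (−0.52 in control, −0.63 under HTV) and Vwf (−0.89, −0.59), were lower in SS and 1, Aqp5 (0.38, 0.39), was higher. Of 9 T and NK cell markers 3 were higher in SS control lungs, with Gzma at 1.33, and 1 under HTV, and of 6 macrophage and monocyte markers 1 was higher in each (Adgre1 in control, Cd68 under HTV). These genes were named after their values were seen. The part of these cells in the results below was not tested. SS control 3 stood apart from the other arrays (array weight 0.29 against 0.62 to 1.98 for the rest). The beta-actin 5′ to 3′ log2 ratio, a measure of RNA integrity, was −1.4 on it, against −0.507 and −0.232 on SS control 1 and 2. By strain that ratio was −0.70 ± 0.43 (SD, n = 6) in SS and −1.17 ± 0.23 in BN (two-sided exact permutation p = 0.0498). The GAPDH ratio was −0.29 ± 0.24 in SS and −0.51 ± 0.12 in BN (exact permutation p = 0.0758).

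Cdkn1a, the gene for the cell-cycle inhibitor p21, showed the largest HTV difference of the 7 genes in each strain. Its brighter probe set (1388674_at) read 348.0, 262.0 and 206.8 in SS control lungs and 1440.2, 1393.9 and 999.4 in SS HTV lungs. In BN it read 170.4, 215.5 and 175.8 in control lungs and 534.7, 714.9 and 468.0 under HTV. Every HTV array of a strain was above every control array of that strain, and the 3 SS HTV arrays were above the 3 BN HTV arrays. Group means were 272.3 ± 71.2 (SD, n = 3) and 1277.8 ± 242.2 in SS, a ratio of 4.69, and 187.2 ± 24.6 and 572.5 ± 127.7 in BN, a ratio of 3.06. The log2 difference was 2.18 ± 0.20 in SS (adjusted p = 5.15e-05) and 1.52 ± 0.20 in BN (adjusted p = 0.000705). It passed in both strains under every alternative run, at 2.0 to 2.36 in SS and 1.33 to 1.65 in BN. The groups ranked SS HTV, BN HTV, SS control, BN control; BN HTV and SS control arrays did not overlap but were not among the 5 comparisons, and the control groups differed by 0.48 ± 0.20 without passing (95% interval 0.05 to 0.91, adjusted p = 0.127).

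The dimmer Cdkn1a probe set (1387391_at) read 42.9, 38.9 and 2.7 in SS control, 111.9, 189.2 and 159.7 in SS HTV, 2.2, 3.0 and 2.7 in BN control and 16.5, 15.6 and 21.1 in BN HTV. SS control 3, the array that stood apart, lay with the BN controls, well below the other SS controls. Within each strain the HTV arrays were above all controls, and the SS HTV arrays were above the BN HTV arrays. The distance of the low values from background is unknown, so no ratio is given. Over the 12 arrays the 2 Cdkn1a probe sets correlated at Pearson r = 0.86.

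**Figure D1:**
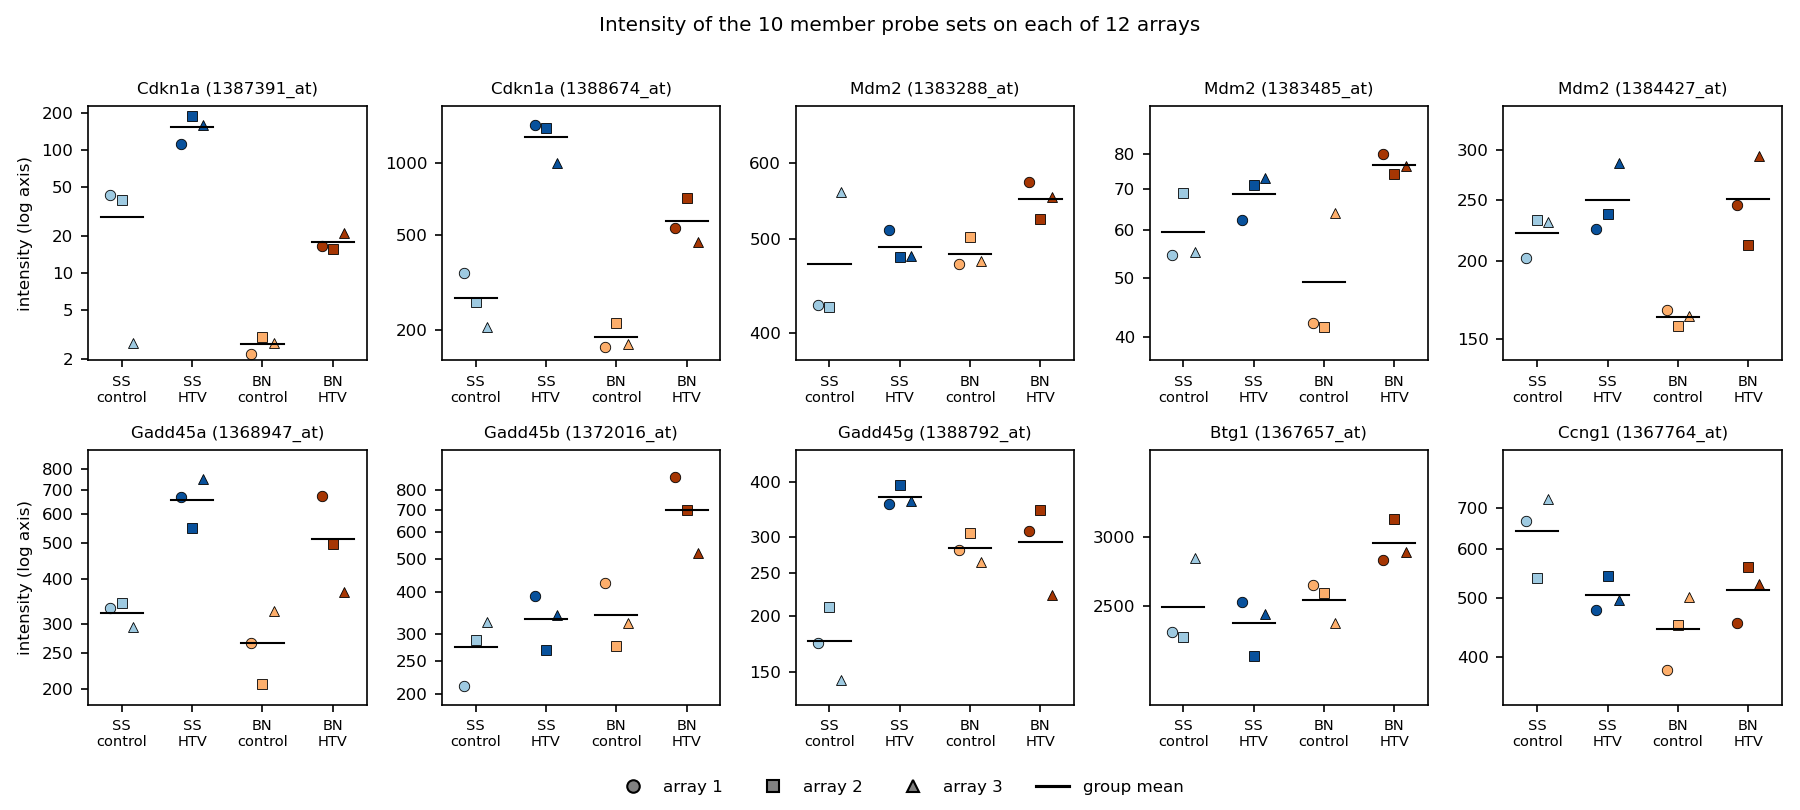
Intensity (log axis, deposited linear units) of the 10 member probe sets on 12 arrays; symbols are arrays 1 to 3 of a group and the line is the group mean. Both Cdkn1a probe sets and Gadd45a are higher under HTV in both strains, Gadd45g is higher under HTV among the SS arrays and overlaps among the BN arrays, and Gadd45b is highest in BN HTV.

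The 3 GADD45 genes differed from one another in where they passed the test. Gadd45a rose in both strains, Gadd45g rose in SS, and Gadd45b rose in BN. Gadd45a read 332.2, 343.2 and 294.5 in SS control, 667.9, 549.3 and 750.1 in SS HTV, 267.5, 206.0 and 326.0 in BN control, and 675.5, 498.4 and 367.5 in BN HTV. HTV and control arrays did not overlap within a strain, and BN HTV 3 was the lowest of the HTV arrays. The log2 difference was 0.98 ± 0.20 in SS (2.03 times, adjusted p = 0.0109) and 0.89 ± 0.20 in BN (1.93 times, adjusted p = 0.0206). These calls depended on single arrays: the SS value was 0.88 (adjusted p = 0.0528) without SS HTV 3. The BN value was 0.90 (0.0607) without BN control 1, 0.73 (0.0915) without BN control 2, 0.68 (0.0893) without BN HTV 1 and 0.89 (0.066) without BN HTV 2, the adjusted p standing in parentheses. Fitted on the BN arrays alone it was 0.89 (0.0502). The strain difference did not pass in control lungs (0.28 ± 0.20, adjusted p = 0.37) or under HTV (0.37 ± 0.20, adjusted p = 0.29).

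Gadd45g read 173.7, 209.9 and 143.9 in SS control and 356.9, 392.6 and 361.1 in SS HTV. In BN it read 281.5, 306.4 and 264.4 in control and 309.4, 346.2 and 222.7 under HTV. The SS groups were far apart and the SS controls were the lowest of the 12 arrays, whereas the BN groups overlapped, with BN HTV 3 below all BN controls. The difference was 1.02 ± 0.16 in SS (2.11 times, adjusted p = 0.00189), between 0.86 and 1.15 under the alternatives, all of which passed. In BN it was 0.02 ± 0.16 (95% interval −0.32 to 0.36, adjusted p = 0.962). In control lungs SS lay below BN by 0.66 ± 0.16 (the difference was −0.66, adjusted p = 0.0178); without BN control 2 it was −0.60 (adjusted p = 0.0821). Under HTV SS lay at 0.34 ± 0.16 above BN, which did not pass (adjusted p = 0.208). The SS control arrays enter both the HTV comparison in SS and the control comparison of the strains, so these values are not independent.

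Gadd45b showed the other pattern. It read 211.9, 288.7 and 327.1 in SS control and 388.4, 270.7 and 342.9 in SS HTV, which overlapped (0.27 ± 0.21, adjusted p = 0.451). In BN it read 425.4, 276.6 and 323.7 in control and 875.2, 699.3 and 522.0 under HTV, with no overlap. The BN difference was 0.99 ± 0.21 (2.04 times, adjusted p = 0.0148). It was 0.85 (adjusted p = 0.0717) without BN control 2, 0.96 (0.0541) without BN control 3, 0.81 (0.0734) without BN HTV 1 and 0.97 (0.0566) without BN HTV 2. Under HTV all SS arrays lay below all BN arrays, at −1.01 ± 0.21 (adjusted p = 0.0102); this was −0.88 (0.0559) without SS HTV 2 and −1.0 (0.0588) with the beta-actin ratio as a covariate. Control lungs of the strains overlapped (−0.29 ± 0.21, adjusted p = 0.377). BN HTV 3 was the lowest BN HTV array for all 3 GADD45 genes. The lowest neutrophil marker sum of the HTV arrays, 2859.4, was also that of a BN HTV array. BN HTV 3 is 1 array picked after its values were seen, and a link between its GADD45 values and neutrophil markers was not tested. Without BN HTV 3 the BN differences were 1.1 for Gadd45a, 1.18 for Gadd45b and 0.20 for Gadd45g, of which the first 2 passed.

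Mdm2, which limits p53 and is switched on by it, differed between its 3 probe sets. The brightest (1383288_at), which stands for the gene in the counts, read 427.2, 425.8 and 559.3 in SS control, 511.5, 479.2 and 479.8 in SS HTV, 471.5, 502.6 and 474.4 in BN control and 572.2, 524.7 and 553.0 in BN HTV. Its HTV difference was 0.07 ± 0.11 in SS and 0.18 ± 0.11 in BN, and neither passed (adjusted p = 0.733 and 0.388). A second probe set (1384427_at) read 201.8, 232.0 and 230.8 in SS control, 224.5, 237.9 and 286.8 in SS HTV, 167.3, 157.8 and 163.5 in BN control and 245.8, 211.8 and 294.3 in BN HTV. In BN it rose by 0.56 ± 0.13 (1.54 times, adjusted p = 0.0223), while in SS the groups overlapped (0.16 ± 0.13, adjusted p = 0.476). Leaving out BN control 1 gave 0.58 (adjusted p = 0.0608), BN control 2 gave 0.54 (0.0795), BN control 3 gave 0.57 (0.0667), BN HTV 1 gave 0.57 (0.0701) and BN HTV 3 gave 0.45 (0.0718). Without both SS control 3 and BN HTV 3 it was 0.45 (0.0539). In control lungs all SS arrays of this probe set lay above all BN arrays, at 0.41 ± 0.13 (adjusted p = 0.0578). That strain difference passed with array weights (0.41, adjusted p = 0.0214) and some other alternatives. Under HTV the strains were level (means 249.7 in SS and 250.6 in BN, difference 0.00 ± 0.13). The HTV difference in SS minus that in BN was −0.41 ± 0.18 (limma, unadjusted p = 0.0454, adjusted p = 0.592). The third (1383485_at), dim at 41.6 to 80 on all arrays, showed a BN difference of 0.53 ± 0.15 that missed the threshold (adjusted p = 0.0584) and an SS difference of 0.17 ± 0.15. The BN difference of the 3 probe sets, which measure 1 gene on the same animals, ranged from 0.18 to 0.56. The correlation over 12 arrays was 0.76 between the 2 dimmer probe sets and 0.27 and 0.31 between each of them and the brightest.

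Ccng1, encoding cyclin G1, was not higher under HTV in SS: it read 665.3, 538.3 and 724.0 in control and 477.1, 541.9 and 495.6 under HTV. The difference was −0.33 ± 0.13 and did not pass (adjusted p = 0.141). In BN it read 381.2, 451.4 and 501.9 in control and 455.3, 560.5 and 526.2 under HTV, a difference of 0.21 ± 0.13 (adjusted p = 0.429). All 3 SS controls were above the BN controls, and Ccng1 was higher in SS control lungs by 0.51 ± 0.13 (1.44 times, adjusted p = 0.0245). That call rested on single arrays: it was 0.48 (adjusted p = 0.0617) without SS control 1, 0.42 (0.0636) without SS control 3, 0.41 (0.0767) without BN control 1 and 0.53 (0.0778) without BN control 2. Fitted on the control arrays alone it was 0.51 (0.0646), and without both SS control 3 and BN HTV 3 it was 0.42 (0.0718). Under HTV the strains differed by −0.02 ± 0.13 (95% interval −0.31 to 0.26).

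Btg1, bright on every array, read 2330.4, 2303.4 and 2841.6 in SS control, 2527.5, 2186.5 and 2447.9 in SS HTV, 2646.2, 2585.8 and 2392.6 in BN control and 2824.1, 3154.4 and 2889.5 in BN HTV. The BN HTV arrays were above the BN controls, but the difference of 0.22 ± 0.10 did not pass (adjusted p = 0.253), and in SS it was −0.06 ± 0.10 (adjusted p = 0.754). Under HTV SS lay at −0.31 ± 0.10 against BN, which did not pass (adjusted p = 0.0797). It passed without SS control 3 (−0.31, adjusted p = 0.0258) and with array weights (−0.3, adjusted p = 0.0428). Without both SS control 3 and BN HTV 3 it passed too (−0.32, adjusted p = 0.0486).

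**Figure D2:**
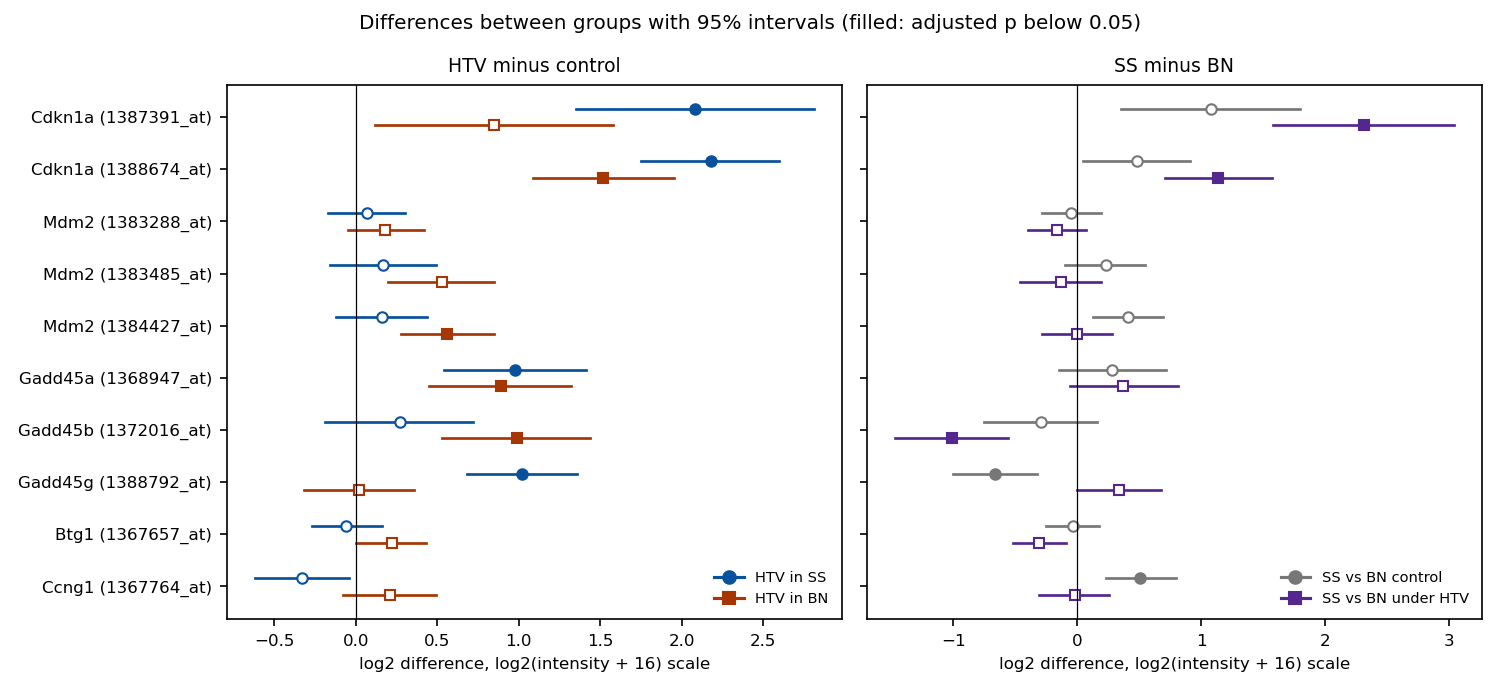
Log2 differences, log2(intensity + 16) scale, with 95% intervals for the 10 member probe sets. The left panel shows HTV minus control in each strain, and the right panel SS minus BN in control and HTV lungs. Filled symbols have an adjusted p below 0.05. Cdkn1a 1387391_at was kept only through SS HTV, so its intervals and filled symbols are drawn by the same rule but are not read as a test. Cdkn1a (1388674_at) lies at 2.18 in SS and 1.52 in BN, Gadd45a is filled in both strains, Gadd45g is filled in SS and Gadd45b in BN.

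Counted over genes, 3 of the 7 measured members passed for HTV in SS (Cdkn1a, Gadd45a, Gadd45g), where 8.04% of all 10555 genes passed, and 3 of 7 in BN (Cdkn1a, Gadd45a, Gadd45b), where 5.68% passed. All of these were higher under HTV; 3.92% of all genes passed in that direction in SS and 2.99% in BN. The median difference of the 7 members was 0.27 in SS and 0.22 in BN, against −0.01 and −0.03 over all genes. The share of higher genes among those past the test moved with scaling, from 48.8% to 38.1% in SS and from 52.7% to 62.6% in BN under median centring, but the member counts stayed at 3 in SS and BN with that scaling. The second Mdm2 probe set is not in these counts, since another represents the gene.

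The test of whether HTV acted differently in SS and BN is the difference of the 2 HTV differences. No gene of 10555 passed it in limma after adjustment, members included, while 900 genes (8.53%) had an unadjusted p below 0.05. Among these were 4 of the 7 members. The HTV difference in SS was larger than in BN by 1.0 ± 0.22 for Gadd45g (unadjusted p = 0.000563, adjusted p = 0.53) and by 0.66 ± 0.28 for Cdkn1a (unadjusted p = 0.0351, adjusted p = 0.587). The opposite sign was found for Gadd45b, at −0.72 ± 0.30 (unadjusted p = 0.0307, adjusted p = 0.582), and Ccng1, at −0.54 ± 0.19 (unadjusted p = 0.0132, adjusted p = 0.576). For Gadd45a the value was 0.09 ± 0.28, with a 95% interval of −0.52 to 0.70 that holds sizeable differences in either direction. The passing of Gadd45g in SS and of Gadd45b in BN is therefore not shown to differ between the strains after adjustment. Without SS control 3 the unadjusted p was 0.00136 for Gadd45g, 0.0313 for Ccng1, 0.0748 for Gadd45b and 0.0917 for Cdkn1a.

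**Figure D3:**
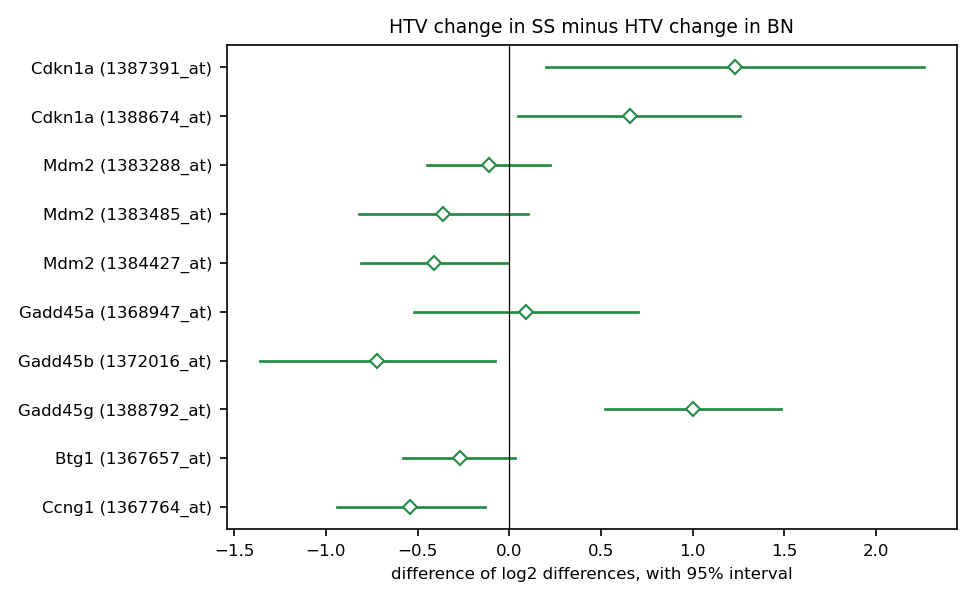
HTV difference in SS minus HTV difference in BN for each member probe set, on the log2(intensity + 16) scale, with 95% intervals. Open symbols have an adjusted p of 0.05 or above, and all 10 are drawn open. The dimmer Cdkn1a probe set was kept only through its SS HTV arrays. Its interval and open symbol are drawn by the same rule but are not read as a test. Gadd45g lies at 1.0 and Gadd45b at −0.72, on opposite sides of 0, and Gadd45a lies near 0.

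Between the strains, 2 of 7 members passed in control lungs (Ccng1 higher and Gadd45g lower in SS), where 11.0% of all genes passed. Under HTV 2 of 7 passed (Cdkn1a higher and Gadd45b lower in SS), where 7.28% of all genes passed. Cdkn1a (1388674_at) was 1.14 ± 0.20 higher in SS HTV than in BN HTV lungs (2.23 times, adjusted p = 0.00346). It passed under each alternative run, at 1.01 to 1.31. In control lungs its difference of 0.48 ± 0.20 was 0.65 (adjusted p = 0.0518) without SS control 3; it passed with array weights (0.58, adjusted p = 0.0221) and without both SS control 3 and BN HTV 3 (0.65, adjusted p = 0.0438). The beta-actin ratio differed between the strains, and with it as a covariate the Cdkn1a value under HTV was 1.11 (adjusted p = 0.0259). In control lungs median centring moved the share of higher genes among those past the test from 53.2% to 73.7%.

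The rest of the p53 pathway was described with 7 lists of 123 entries, of which 82 had a kept probe set. Of 11 measured p53 regulators, the kinases and ligases that act on p53, none passed under HTV in either strain. Over all genes 8.04% passed in SS and 5.68% in BN, so a count of 0 among 11 is near that share. The median HTV difference of the regulators was −0.10 in SS and −0.05 in BN. Between the strains, 3 of the 11 were lower in SS control lungs, where 11.0% of all genes passed. Under HTV 1 of the 11 was lower in SS, where 7.28% of all genes passed. Mdm4, the partner of Mdm2, lay 1.52 ± 0.29 below BN in SS control lungs (difference −1.52, adjusted p = 0.00607) and 1.74 below under HTV (difference −1.74, adjusted p = 0.00268); it was named after its values were seen, as were Usp7 (−0.53) and Hipk2 (−0.67), which passed in control lungs. Mdm4 passed under every alternative, whereas the call was lost in 4 for Usp7 and in 5 for Hipk2.

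Other p53 targets did not move one way. Of 26 measured, 2 rose and 3 fell in SS and 2 rose and 2 fell in BN, with medians of 0.00 and −0.03; over all genes 8.04% passed in SS and 5.68% in BN. Plk2, a stress-induced polo-like kinase, rose by 0.95 ± 0.19 in SS (adjusted p = 0.0106) and 1.46 ± 0.19 in BN (adjusted p = 0.000749). Sfn, encoding 14-3-3 sigma, which holds cells before mitosis, rose by 0.75 ± 0.18 in SS. Ccng2, a cyclin G1 relative, showed −0.80 in SS and −0.82 in BN, and the ubiquitin ligase gene Trim32 −0.63 and −0.58, and all 4 of these passed. The remaining calls, named after their values were seen, were Apaf1, the caspase-9 platform, at −0.42 in SS, and Pcna, the DNA polymerase clamp, at 0.44 in BN. Trim32 in both strains and Plk2 in BN passed under every alternative. Plk2 in SS lost the call without SS HTV 1 or SS HTV 3 (highest adjusted p = 0.0562), and the other calls were lost under 4 to 13 of 23 or 24 alternatives; without SS control 3 and BN HTV 3 the SS counts were 1 up and 2 down.

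Among partners of the members in cell-cycle control the counts stand beside the same 8.04% and 5.68% over all genes. Of 5 other CDK inhibitors, Cdkn2b fell in SS (−0.65 ± 0.17, adjusted p = 0.0306) and none passed in BN. Of 14 cyclins and CDKs none passed in either strain, with medians of 0.01 and −0.15, and of 8 GADD45 partners and stress MAP kinases none passed (medians 0.02 and 0.06). In the BTG and TOB family with its CCR4-NOT partners, 1 of 7 rose in each strain: Tob2 in SS (0.69 ± 0.16) and Btg3 in BN (0.47 ± 0.12). Over the alternatives the call was lost in 6 for Tob2, 12 for Btg3 and 6 for Cdkn2b.

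The BCL2 family, which decides on apoptosis at mitochondria and to which Bax belongs, had 11 measured genes. In SS 4 rose and 1 fell, in BN 3 rose, and the medians were 0.32 and 0.27. Of all genes, 3.92% passed in the higher direction in SS and 2.99% in BN. Bcl2l1, encoding the survival protein BCL-XL, rose by 1.15 ± 0.26 in SS and 1.09 ± 0.26 in BN. Bcl2l11, encoding the death-promoting BIM, rose by 0.90 ± 0.14 in SS under every alternative, and Bok, a BAX relative, by 0.62 ± 0.15 in SS. Mcl1, a survival gene, rose by 0.53 ± 0.11 in BN. Bnip3 (0.41 in SS and 0.47 in BN) and the survival gene Bcl2l2 (−0.52 in SS) also passed and were named after their values were seen. Genes that promote and genes that oppose apoptosis were both among those that rose. With 1 array left out the risers numbered 1 to 4 in SS and 0 to 3 in BN, and they were 3 and 2 when SS control 3 was dropped together with BN HTV 3.

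**Figure D4:**
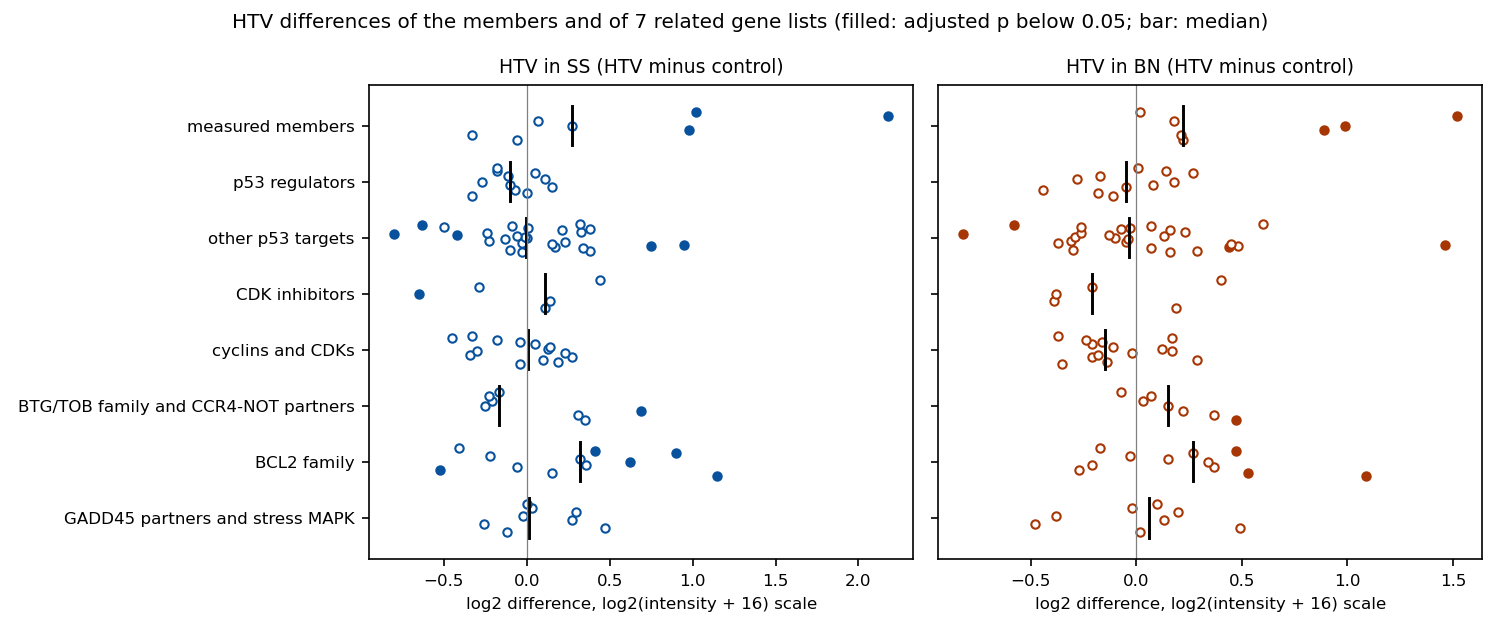
HTV minus control log2 difference, log2(intensity + 16) scale, of the 7 measured members and of each kept gene of 7 related lists, in SS (left) and BN (right); points are genes, filled where the adjusted p is below 0.05, and bars are medians. List medians lie between −0.21 and 0.32, and Cdkn1a at 2.18 and 1.52 is the rightmost point of both panels.

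The genes whose pattern over the 12 arrays was most like that of Cdkn1a were Dusp9 (Pearson r = 0.956), Bmp2 (0.952), Fzd4 (0.938), Dyrk3 (0.935) and Slc30a3 (0.931). These correlations run over the 4 groups together and describe mainly shared group differences. Dusp9 differed by 2.31 under HTV in SS and 1.74 in BN, and Bmp2 by 1.66 and 1.03. The most similar gene was Mmp8, a neutrophil collagenase, for Gadd45a (0.967), Zbtb17 for Gadd45b (0.933), Cryba4 for Gadd45g (0.915), Rprml for Mdm2 (0.908), Rhoa for Ccng1 (0.913) and Chpt1 for Btg1 (0.911). Mmp8 differed by 2.80 in SS and 2.27 in BN and is one of the neutrophil markers that rose. Zbtb17 differed by 0.05 and 0.16, so its likeness to Gadd45b is one of shape at a much smaller size. Among the members, Cdkn1a (1388674_at) correlated at 0.86 with Gadd45a, 0.64 with Gadd45g, 0.19 with Gadd45b and 0.01 with Ccng1. Gadd45b correlated at 0.78 with Btg1 and 0.31 with Gadd45g.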

How the data were processed

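Right-lung RNA of 12 rats, 6 µg each, was labelled with biotin and hybridised to Affymetrix arrays, per the labels' protocols. Values are linear intensity per probe set as deposited by the authors, and MAS5 is named per the submitters' processing notes, with neither version nor settings stated there. The mean of values between the percentiles 2 and 98 was 149.6 to 150.0 on each array, so no normalization was added. Detection calls were not used here. Arrays give no counts, and their number, 3 per group, limits the precision.

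Of 31099 probe sets, 57 controls were left out; 20826 name 1 gene, 436 several and 9780 none. RefSeq's table (GRCr8) updated 0 symbols and lacked 68 identifiers. Probe sets with a mean intensity at or above the 40th percentile were kept, and log2(intensity + 16) was fitted with limma 3.58.1 in R 4.3.3 (lmFit with 4 group means and 8 residual degrees of freedom, eBayes with trend). Benjamini-Hochberg adjustment ran over all kept probe sets separately in 5 comparisons. Unadjusted p-values of members also come from limma. P-values measure the spread between these animals. The model was tested on simulated data.

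Members, lists and tests were chosen with earlier results of these data known. Named genes are all members, at most 4 per list with the smallest p under HTV among those past the test, the 5 genes most like Cdkn1a and 1 for each other member; exceptions are stated. Alternatives were pseudocounts of 1 and 64, no filter, a 60th-percentile filter, quantile normalization, median centring, no trend, array weights, averaging all kept probe sets of a gene, only the arrays compared, the beta-actin ratio as covariate, SS control 3 and BN HTV 3 left out together, and each array left out in turn. SS control 3 had the lowest array weight (0.29), but BN HTV 3, at 0.90, was above BN HTV 2 at 0.62. Leaving out BN HTV 3 therefore does not follow from a low weight. Refitting the list genes was added after the data were seen.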

Additional observations from a re-analysis of the deposited data

How the results depend on the processing

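Over 24 alternatives, the number of members past the test for HTV in SS stayed at 3 under other settings and was 2 to 3 with single arrays left out. For HTV in BN it was 2 to 4 and 1 to 3, with 1 left without BN control 2, BN HTV 1 or BN HTV 2. For SS against BN in control lungs it was 1 to 3 and 0 to 2, with 1 when only the arrays compared were fitted, 1 without SS control 1, SS control 3 or BN control 1 and 0 without BN control 2. Under HTV it was 1 to 3 and 1 to 3, with 1 when the beta-actin ratio was a covariate and 1 without SS HTV 2. For the strain by HTV term it was 0 throughout. Of 1130 member values under an alternative, 1049 kept direction and side of the threshold, 25 lost the threshold, 25 gained it and 31 changed sign. Of the last, 0 involved a value past the threshold on either side. The 1130 include values of Cdkn1a 1387391_at, which is otherwise given with no test. Some of the 25 that gained the threshold are of this probe set, for HTV in BN and for SS minus BN in control lungs.

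Sign changes under other settings were these. Median centring gave −0.01 for Gadd45a in the strain by HTV term, and for SS minus BN in control lungs 0.06 for Btg1 and 0.05 for Mdm2 1383288_at, and 0.001 for Mdm2 1384427_at under HTV. Array weights gave 0.01 for Btg1 for HTV in SS and 0.02 for Ccng1 for SS minus BN under HTV. The beta-actin covariate gave 0.04 for Btg1 and 0.06 for Mdm2 1383288_at in control lungs and 0.10 for Ccng1 under HTV. Leaving out SS control 3 and BN HTV 3 gave 0.04 for Btg1 for HTV in SS, −0.19 for Gadd45a and 0.02 for Mdm2 1383288_at in the strain by HTV term, and 0.11 for Mdm2 1384427_at under HTV. With single arrays left out, some results changed sign in part of the fits. For these results the values of all such fits, with and without a sign change, are given as ranges. The values ranged from −0.11 to 0.04 for Btg1 for HTV in SS and −0.13 to 0.02 in control lungs. For Mdm2 1383288_at they ranged from −0.17 to 0.02 in control lungs and −0.18 to 0.01 in the strain by HTV term, and for Mdm2 1384427_at from −0.11 to 0.11 under HTV. They ranged from −0.1 to 0.2 for Gadd45g for HTV in BN, −0.12 to 0.3 for Gadd45a in the strain by HTV term and −0.1 to 0.04 for Ccng1 under HTV. The cause was not tested. Of 718 values of list genes past the test, 568 still passed and 150 did not, and 0 changed sign.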
